A study of Mus musculus with 9 samples.

Results

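A set of 9 genes that set or maintain myeloid identity was followed through a light-driven retinal degeneration: *Spi1*, *Irf8*, *Mef2a*, *Mef2c*, *Sall1*, *Runx1*, *Cebpa*, *Cebpb* and *Kdm6b*. The set was chosen by name, with earlier results of these data known. All 9 were present among the 27998 genes of the deposited tables. The cells were alive CD45+ CD11b+ cells sorted from the retinas of female Arr1-/- mice aged 2 to 5 months. These mice lack visual arrestin, the protein that shuts off activated rhodopsin, so that their rods die under steady light. The samples of day 0 came from mice held in constant darkness, and those of day 7 and day 20 from mice exposed to constant light of about 200 lux for 7 or 20 days, with 3 single-cell RNA libraries per day. Every group carried the Arr1 deletion, so there was no wild-type group, and day 0 differed from the other days in light as well as in time. Nothing in the sources used here ties a library to one mouse, so that p-values below measure only the spread between libraries, which may be technical.

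Myeloid identity is held by a small set of DNA-binding factors. *Spi1* encodes PU.1, the ETS-family factor that opens enhancers across the myeloid lineage, and *Irf8* encodes an interferon regulatory factor that often binds beside PU.1 and is needed for normal microglia. MEF2 factors, encoded here by *Mef2a* and *Mef2c*, bind the enhancers of brain-resident microglia, *Sall1* encodes a zinc-finger repressor that marks microglia among macrophages, and *Runx1* encodes a factor of early blood and myeloid development. *Cebpa* and *Cebpb* encode C/EBP leucine-zipper factors, the first tied to myeloid commitment and the second to macrophage differentiation and inflammatory gene expression. *Kdm6b* encodes an enzyme that removes methyl groups from lysine 27 of histone H3 and is induced by inflammatory stimuli in macrophages.

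Reads were counted as unique molecular identifiers (UMIs, one per captured RNA molecule). The 9 libraries listed 5022 barcode entries but only 1365 different barcodes, of which 612 stood in more than 1 library and 270 in all 9. Each barcode was therefore used only in the library where it had most UMIs. Of 851 barcodes that passed quality control, 732 were retained because their UMIs of 16 myeloid markers exceeded those of all other cell types together, and 119 were left out, among them 84 rod and cone cells. Retained cells numbered 253 at day 0, 282 at day 7 and 197 at day 20, with 16 to 192 cells and 19773 to 255360 UMIs per library. The third day 7 library was the smallest, with 16 cells. Of the retained cells, 487 were also listed in another library, where they held a median of 23.8% of the UMIs they had in the library used. The sort markers were not part of that rule: *Itgam*, which encodes CD11b, had a UMI in 19.9% of retained and 3.57% of left-out rod and cone cells, and *Ptprc*, which encodes CD45, in 13% and 4.76%. *Sag*, the gene for visual arrestin, had 0 to 2 UMIs per library.

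Levels below are given as CPM, the UMIs of a gene per 1000000 UMIs of a library's retained cells. Log2 changes (± SE) and adjusted p-values come from edgeR's quasi-likelihood test on UMIs summed per library, with Benjamini-Hochberg adjustment over all 1435 genes tested and a threshold of 0.05. In sums over cells, fewer cells of one type and less RNA per cell cannot be told apart. At day 7, 6 of the 8 tested members were lower than at day 0 and none was higher, while 16.5% of all genes tested were called lower (237 of 1435). The median log2 change was −1.67 over the 8 members and −0.06 over all genes tested. Because the members were chosen with earlier results of these data known, this contrast with all genes, like those below, is not a test of the set. Of the members called lower, 2 (*Cebpa* and *Kdm6b*) were called lower without the first day 7 library. The same 2 were called with the libraries summed as deposited, beside 1.56% of all genes (41 of 2628). With no filter on low counts 3 were called lower, and with the left-out cell types included 4. Apart from the deposited sums, the share of all genes called lower is not given for these settings. The ninth member, *Sall1*, had too few UMIs for the test. At day 20 no member differed from day 0 (39 of 1435 genes were called in either direction, 2.72%), although all 8 estimates lay below 0 with a median of −0.73. Of all genes tested, 49.9% lay below 0, with a median of 0.0025. At an unadjusted p under 0.05 that comparison gave 232 genes, and DESeq2 called 45 genes.

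**Figure D1:**
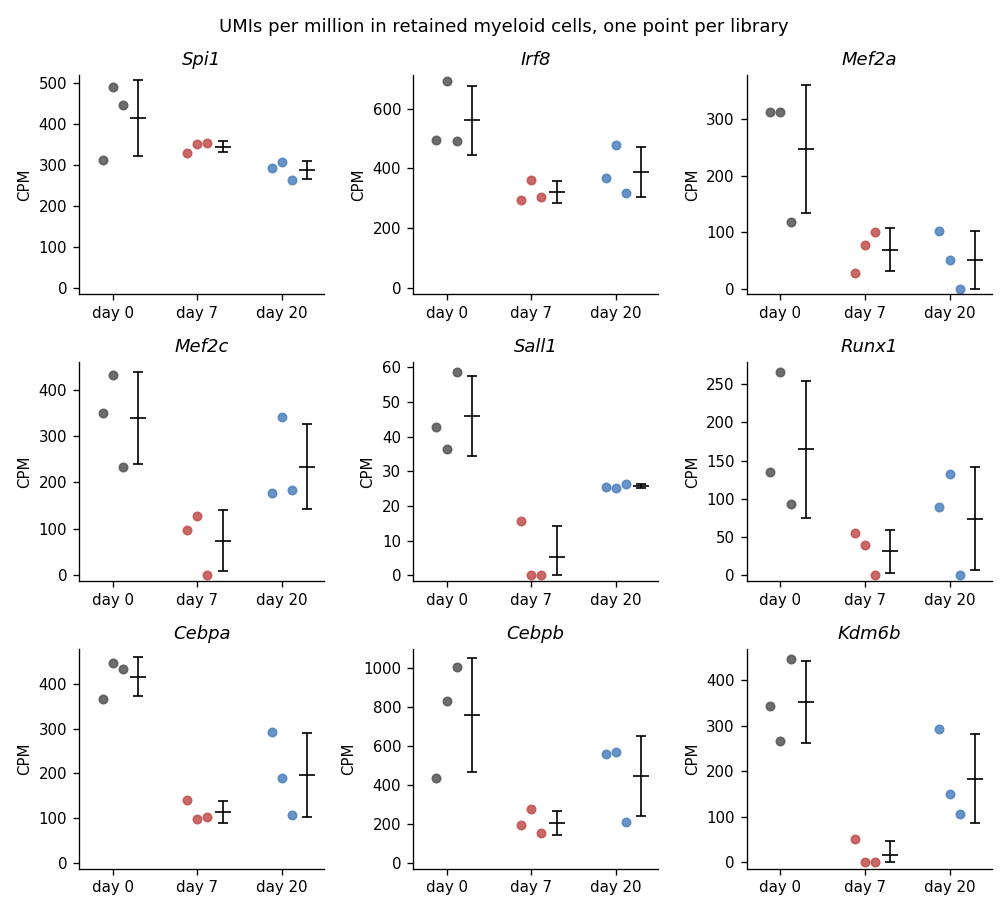
Level of each gene (CPM, linear axis from 0) in the 9 libraries, by day; points are libraries and bars the mean ± SD of 3. For 8 of the 9 genes, all but *Spi1*, every day 7 library lies below every day 0 library. A library without a UMI is taken as 0 there. For *Mef2a*, *Runx1* and *Sall1* the limit of 3 UMIs in the third day 7 library reaches into or above the day 0 range.

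The lineage factors *Spi1* and *Irf8* had the smallest day 7 estimates. *Spi1* stood at 312, 489 and 445 CPM in the 3 day 0 libraries, at 329, 352 and 354 CPM at day 7, and at 293, 309 and 264 CPM at day 20. The day 7 range lay within the day 0 range, and the day 20 libraries lay just below it. The log2 change was −0.15 ± 0.27 at day 7 (edgeR adjusted p = 0.72) and −0.47 ± 0.27 at day 20 (adjusted p = 0.41). *Irf8* measured 496, 692 and 492 CPM at day 0, 294, 362 and 303 CPM at day 7, and 369, 479 and 316 CPM at day 20. No later library reached the lowest day 0 library. Its log2 change of −0.69 ± 0.29 at day 7 did not pass the threshold (edgeR adjusted p = 0.088), nor did −0.46 ± 0.28 at day 20 (adjusted p = 0.43).

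The MEF2 genes fell at day 7 and are shown with the sequence around their first listed start sites, because one of them carries a match to the MEF2 motif. Both promoters below run 5′ to 3′ on the gene's strand, from 250 bases before the start site to 20 bases after its first base, as given by RefSeq for build GRCm38.p6. Capitals mark a match to the MEF2 consensus or the PU.1 core GAGGAA. *Mef2a* is on the minus strand at chr7:67372839-67373108 and *Mef2c* on the plus strand at chr13:83503784-83504053.

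Mef2a: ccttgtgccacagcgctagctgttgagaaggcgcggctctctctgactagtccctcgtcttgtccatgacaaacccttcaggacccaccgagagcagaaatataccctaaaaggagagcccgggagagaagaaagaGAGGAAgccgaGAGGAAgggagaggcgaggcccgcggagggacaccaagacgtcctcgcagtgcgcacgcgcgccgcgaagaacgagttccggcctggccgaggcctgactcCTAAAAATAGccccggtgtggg

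Mef2c: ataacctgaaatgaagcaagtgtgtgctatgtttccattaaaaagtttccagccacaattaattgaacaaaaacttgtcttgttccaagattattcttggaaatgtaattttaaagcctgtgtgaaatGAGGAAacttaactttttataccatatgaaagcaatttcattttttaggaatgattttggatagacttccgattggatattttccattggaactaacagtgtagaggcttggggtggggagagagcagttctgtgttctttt

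The *Mef2a* promoter held the MEF2 match at position −2 from the start site and PU.1 cores at −114 and −103, and the *Mef2c* promoter held a PU.1 core at −122. Of 32851 mouse promoters of this length, 3.41% held the MEF2 motif and 25.1% the PU.1 core on either strand. Such matches describe letters and not bound sites, and the motifs do not overlap one another here.

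*Mef2a* had 312, 312 and 117 CPM at day 0, 27.4, 78.2 and 101 CPM at day 7, and 102, 50.4 and 0 CPM at day 20. All later libraries lay below the lowest day 0 library. The third day 7 library held 2 UMIs, and its limit of 3 UMIs (152 CPM) exceeds that lowest library. The mean levels of 68.9 CPM at day 7 and 50.7 CPM at day 20 stood below the 88.1 CPM (95% exact Poisson interval 42.2 to 162) of the pooled left-out rod and cone cells. The day 7 level was 4.55-fold lower (log2 change −2.19 ± 0.61, edgeR adjusted p = 0.016). This call was lost without the first day 7 library, where the change was −1.48 (adjusted p = 0.16). The day 20 estimate of −2.10 ± 0.59 did not pass (edgeR adjusted p = 0.072). It passed without the third day 0 library (−2.35, adjusted p = 0.029) or without the first day 20 library (−2.66, adjusted p = 0.036), and with cells of at least 100 detected genes (−2.18, adjusted p = 0.039) or with no filter on low counts (−2.07, adjusted p = 0.044).

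*Mef2c* had 349, 432 and 234 CPM at day 0, 97.9, 127 and 0 CPM at day 7, and 178, 340 and 185 CPM at day 20. The groups of day 0 and day 7 did not overlap, whereas day 20 overlapped day 0. It fell 3.20-fold at day 7 (log2 change −1.68 ± 0.42, edgeR adjusted p = 0.0092), and the change at day 20 was −0.44 ± 0.38 (adjusted p = 0.58). Without the first day 7 library the day 7 change was still −1.68, with an adjusted p of 0.065. *Mef2c* is also a photoreceptor gene, and the 84 left-out rod and cone cells, pooled, held it at 396 CPM (95% exact Poisson interval 289 to 531, counting error only). Over all retained cells it stood at 250 CPM (221 to 281). Of 7 rod and cone markers tested, 6 also fell at day 7, and the sum of all 22 went from 5101 ± 3174 CPM (SD, n = 3) at day 0 to 997 ± 498 CPM at day 7 and 979 ± 514 CPM at day 20, and their part in the *Mef2c* difference was not tested. In the 3 day 0 libraries these markers stood at 6344, 1494 and 7466 CPM, beside *Mef2c* at 349, 432 and 234 CPM. The other 8 members stood at 17.6 to 88.1 CPM in the left-out rod and cone cells.

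*Sall1* was detected with 19 UMIs at day 0, 4 at day 7 and 7 at day 20 over all retained cells. Its levels were 42.8, 36.4 and 58.6 CPM at day 0, 15.7, 0 and 0 CPM at day 7, and 25.4, 25.2 and 26.4 CPM at day 20. A library with 0 UMIs allows up to 3, which is 29.3 CPM in the second day 7 library and 152 CPM in the third. The second day 7 library thus lay below the lowest day 0 library even at that limit, and the third was not resolved. The first held 4 UMIs, so the limit does not bound it. It lay below the lowest day 0 library, which held 7 UMIs, but such counts are too small to separate them beyond counting error.

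*Runx1* had 135, 266 and 93.8 CPM at day 0, 54.8, 39.1 and 0 CPM at day 7, and 89.0, 132 and 0 CPM at day 20. The first and second day 7 libraries lay below day 0, while the 0 of the third allows 152 CPM, above 2 of the day 0 libraries, and day 20 overlapped day 0. The day 7 level was 3.42-fold lower (log2 change −1.77 ± 0.60, edgeR adjusted p = 0.040). That call was the least firm of the 6: it was lost without any one of 6 of the 9 libraries, namely the first or second of day 0, any of day 7 or the first of day 20, with adjusted p from 0.053 to 0.25 and log2 changes from −2.28 to −1.27.

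Both C/EBP genes fell at day 7. The *Cebpb* promoter, at chr2:167688665-167688934 on the plus strand, is shown because it held the short cyclic-AMP response element TGACGCA at position −7, which 1.97% of mouse promoters held. Capitals mark that element.

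Cebpb: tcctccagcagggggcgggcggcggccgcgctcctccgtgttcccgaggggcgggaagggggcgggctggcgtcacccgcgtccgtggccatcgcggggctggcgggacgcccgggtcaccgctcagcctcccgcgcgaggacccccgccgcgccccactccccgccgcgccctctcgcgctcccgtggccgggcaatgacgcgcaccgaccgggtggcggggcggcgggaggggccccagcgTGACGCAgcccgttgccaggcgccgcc

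None of the 13 start sites found for 7 of the 9 members held the C/EBP motif TTGCNNAA (10.1% of all promoters), the RUNX motif TGTGGT (15.1%), the full response element TGACGTCA (1.73%) or the interferon response motif (3.21%), all searched on both strands. The AP-1 motif TGANTCA (7.23% of promoters) matched at 1 start site, the third of *Mef2c*.

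*Cebpa* stood at 367, 448 and 434 CPM at day 0, at 141, 97.7 and 101 CPM at day 7, and at 293, 189 and 105 CPM at day 20. All later libraries lay below the day 0 range. It fell 3.10-fold at day 7 (log2 change −1.63 ± 0.34, edgeR adjusted p = 0.0027), and the change at day 20 was −0.98 ± 0.32 (adjusted p = 0.12). *Cebpb* stood at 434, 833 and 1008 CPM at day 0, at 192, 274 and 152 CPM at day 7, and at 560, 567 and 211 CPM at day 20. Day 7 lay wholly below day 0, and 2 of the 3 day 20 libraries lay within the day 0 range. The day 7 level was 3.16-fold lower (log2 change −1.66 ± 0.40, edgeR adjusted p = 0.0071), and the day 20 change was −0.63 ± 0.37 (adjusted p = 0.41). Without the first day 7 library the *Cebpb* change at day 7 was −1.56 with an adjusted p of 0.059.

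The histone demethylase gene *Kdm6b* had the largest day 7 change among the members. It measured 343, 266 and 445 CPM at day 0, 50.9, 0 and 0 CPM at day 7, and 293, 151 and 105 CPM at day 20. The day 7 libraries lay below all day 0 libraries, also with the zeros at their limits of 3 UMIs (29.3 and 152 CPM), but the limit of the third exceeds 2 of the day 20 libraries, so that day 7 and day 20 were not resolved in that library. It fell 9.81-fold (log2 change −3.29 ± 0.60, edgeR adjusted p = 0.00087) and kept its call without any single library, although without the first day 7 library both remaining ones are at 0 and the fitted change is no bound. From day 7 to day 20 *Kdm6b* rose 5.50-fold (log2 change 2.46 ± 0.64, edgeR adjusted p = 0.036), the only member called in that comparison, in which 5.44% of genes were called (78 of 1435). That rise lost its call without the first day 0 library (2.46, adjusted p = 0.056), the second (1.91, adjusted p = 0.16) or the third (2.21, adjusted p = 0.052) of day 7, or the first (1.93, adjusted p = 0.18) or second (2.61, adjusted p = 0.065) of day 20. *Mef2c* and *Cebpb* had estimates of 1.23 ± 0.45 (adjusted p = 0.15) and 1.02 ± 0.41 (adjusted p = 0.22) over the same interval.

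**Figure D2:**
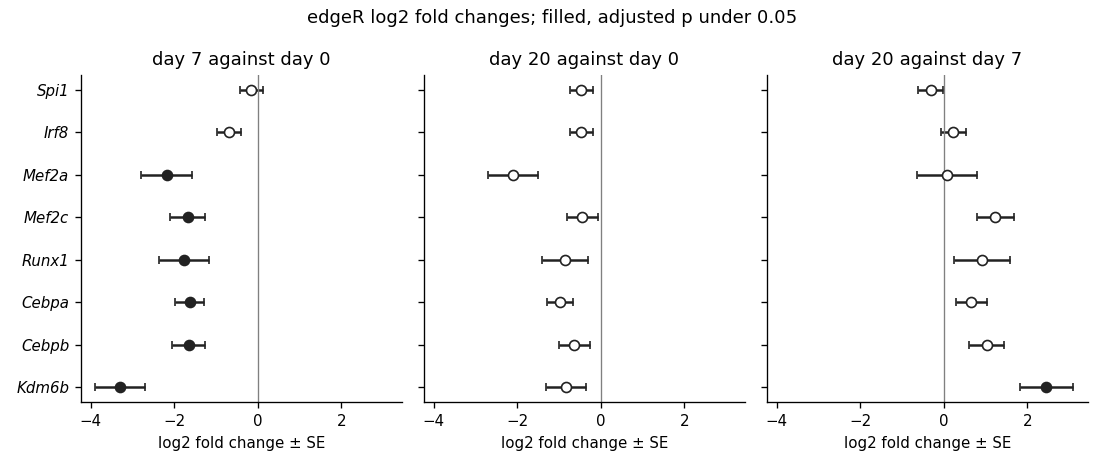
Log2 change of the 8 tested genes, with bars of 1 SE, at day 7 and day 20 against day 0 and at day 20 against day 7, from edgeR on UMIs summed per library. Day 7 estimates run from −0.15 for *Spi1* to −3.29 for *Kdm6b*, and all day 20 estimates against day 0 lie below 0, beside 49.9% of all genes tested.

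Without any model, all 3 day 7 libraries lay below all 3 day 0 libraries for 7 of the 8 tested members, where 25.7% of all genes did so. For day 20 against day 0 the count was 4 of 8 (*Spi1*, *Irf8*, *Mef2a* and *Cebpa*) beside 14.9% of all genes. *Sall1* did so at both days. These counts take a library without a UMI as 0. At the limit of 3 UMIs, *Runx1* and *Sall1* were not resolved at day 7. Nor was *Mef2a*, with 2 UMIs in the third day 7 library (limit 152 CPM). *Mef2c* and *Kdm6b* at day 7 and *Mef2a* at day 20 (limit 79.1 CPM) stayed below every day 0 library. *Sall1* had 2, 4 and 1 UMIs in the day 20 libraries. At the limit of 3 UMIs, those with 2 and 1 UMIs reached 38.2 and 79.1 CPM. The lowest day 0 library stood at 36.4 CPM, so *Sall1* was not resolved at day 20 either.

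The mean share of cells with at least 1 UMI, after each cell was thinned to 579 UMIs, was lower at day 7 than at day 0 for all 9 members. How many of all genes did so was not counted. Cells shallower than that were left out (64 of 253 at day 0, 57 of 282 at day 7 and 61 of 197 at day 20). *Kdm6b* was found in 8.67 ± 1.55% of cells per library at day 0 (SD, n = 3), 0.718 ± 1.24% at day 7 and 4.28 ± 1.22% at day 20, beside 2.82% of rod and cone cells. Unthinned, these shares were 16.9%, 1.74% and 8.48%, beside 7.14% of rod and cone cells. The day 7 share stood below that of rod and cone cells and was not resolved from background. *Cebpb* went from 19.1 ± 5.6% to 5.90 ± 3.04% and 11.3 ± 2.0%, beside 2.83% in rod and cone cells (unthinned 31.2%, 13.9% and 16.8%, beside 5.95%). *Spi1* was in 19.6 ± 7.4%, 13.9 ± 6.4% and 15.0 ± 2.3% of cells, beside 4.02% (unthinned 37.0%, 28.7% and 26.9%, beside 8.33%). *Mef2c* was in 13 ± 1.4%, 2.75 ± 2.45% and 11.0 ± 5.5%, below the 19.8% of rod and cone cells on every day (unthinned 29.0%, 5.10% and 16.8%, beside 28.6%). Pooled rod and cone markers stood at 2281 CPM in retained and 102298 CPM in left-out rod and cone cells. The part of rod RNA in the *Mef2c* share was not tested. *Mef2a* was in 2.26% of cells at day 7 and 2.67% at day 20, beside 2.81% of rod and cone cells (unthinned 5.10% and 4.69%, beside 4.76%), and *Sall1* in 0.439% and 0.489%, beside 1.75% (unthinned 0.694% and 3.07%, beside 2.38%). These thinned shares are at or below those of rod and cone cells and were likewise not resolved from background. The left-out rod and cone cells were not free of myeloid RNA, with a UMI of *Tyrobp* in 42.9% and of *C1qa* in 53.6% of them. Their *Sall1* share rested on 2 UMIs. Median depth was 917 UMIs in retained cells and 1137 in rod and cone cells.

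Other RNA signals moved with the days. Summed immediate-early RNA, the 18 genes such as *Jun*, *Fosb* and *Klf2* that are induced within minutes of a stimulus, stood at 43621 ± 5503 CPM at day 0 (SD, n = 3), 5044 ± 1727 CPM at day 7 and 16261 ± 7642 CPM at day 20. Heat shock genes went from 6137 to 2759 and 3456 CPM. Of 16 macrophage and monocyte markers, 9, 14 and 11 had a UMI at day 0, day 7 and day 20, and their sum ranged from 1255 to 1646, from 6069 to 10808 and from 2916 to 6013 CPM. The monocyte marker *Ccr2* was at 0 at day 0, and *Cd163* was at 0 on all 3 days. Of 8 dendritic cell markers, 2, 7 and 3 had a UMI, and their sum ranged from 23.4 to 46.9 CPM at day 0, from 152 to 498 CPM at day 7 and from 18.9 to 52.7 CPM at day 20, with *Flt3* and *Zbtb46* at 0 at day 0 and day 20. Of 15 lymphocyte markers, 6, 13 and 10 had a UMI, with sums from 18.4 to 67.7, from 97.7 to 657 and from 76.3 to 289.7 CPM. The part of these signals in the members' differences was not tested. Cells with at least 2 UMIs of the MHC class II genes *Cd74*, *H2-Aa*, *H2-Ab1* and *H2-Eb1* made up 9.47 to 13% of cells at day 0, 56.3 to 80.7% at day 7 and 38.7 to 53.5% at day 20. Called on cells thinned to 579 UMIs, positive cells were 7 of 189, 134 of 225 and 47 of 136. The day differences of the members were therefore also examined within classes of cells.

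Within each library, cells above the library's median share of immediate-early RNA were compared with the rest, with the library as a block and the 18 genes left out of the test. *Cebpb* was 7.31-fold higher in the cells high in immediate-early RNA (log2 difference 2.87 ± 0.32, edgeR adjusted p = 6.8e-07) and was higher in 9 of 9 libraries. Per library it stood at 254 to 1454 CPM in the high and 0 to 169 CPM in the low cells. It passed the filter on low counts only through the high cells, so that the direction of its call was close to fixed in advance. *Irf8* was 1.96-fold higher (0.97 ± 0.29, edgeR adjusted p = 0.017, 7 of 9 libraries) and *Spi1* 1.57-fold higher (0.65 ± 0.23, adjusted p = 0.043, 6 of 9 libraries). *Mef2c* had an estimate of 0.72 ± 0.35 (edgeR adjusted p = 0.13). Of the 548 genes tested, 83 were called higher, which is 15.1%, and 3 of the 4 tested members were. That count includes *Cebpb* and is not a test of the set. Without the first or second day 0 library *Irf8* lost its call (log2 difference 0.88, adjusted p = 0.066, and 0.85, adjusted p = 0.072), and *Spi1* lost its call without any one of 5 libraries, the first or second of day 0, the third of day 7 and the first or the third of day 20 (adjusted p from 0.052 to 0.15). The median depth was 1023.5 UMIs in the high cells and 820 in the low cells. With classes called on cells thinned to equal depth, the third day 7 library had fewer than 5 cells in a class and was left out. Over the other libraries *Cebpb* (2.17, edgeR adjusted p = 0.0015), *Irf8* (1.13, adjusted p = 0.0014) and *Spi1* (0.67, adjusted p = 0.037) still passed.

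The other 5 members had too few UMIs per class for that test. With no filter on low counts, *Kdm6b* (log2 difference 2.92, edgeR adjusted p = 2.3e-08), *Cebpa* (1.49, adjusted p = 0.00088), *Runx1* (2.11, adjusted p = 0.0016) and *Mef2a* (1.88, adjusted p = 0.0032) were higher in the cells high in immediate-early RNA. In that fit *Irf8* (0.65, adjusted p = 0.24) and *Spi1* (0.34, adjusted p = 0.93) were not called. The share of all genes called higher in the fit with no filter is not given, so these calls have no background beside them.

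**Figure D3:**
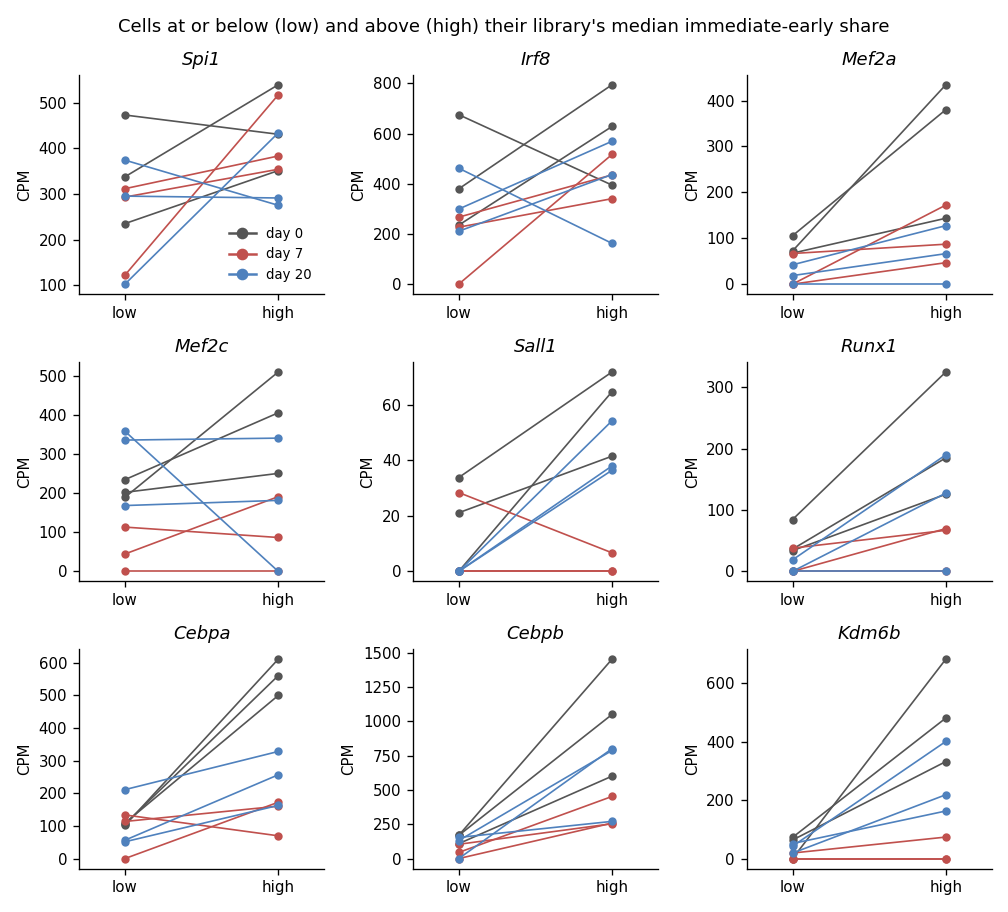
Level of each gene (CPM) in the cells of each library at or below (low) and above (high) the library's median share of immediate-early RNA; lines join the classes of one library and colours give the day. *Cebpb* is higher in the high cells of 9 of 9 libraries.

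A median split lets the cut differ between libraries, so the cells were also divided at one share for all days, 0.301% of UMIs, the median over all retained cells, a cut chosen after the data were seen. Above it lay 211 of 253 cells at day 0, 93 of 282 at day 7 and 62 of 197 at day 20. The cut did not make immediate-early RNA equal between days: cells above it held 4.56% of their UMIs in these genes at day 0, 0.981% at day 7 and 3.07% at day 20, and cells below it 0.161%, 0.142% and 0.154%. Pooled levels are given with 95% exact Poisson intervals for counting error and without a test. These intervals leave out the spread between libraries and between cells. Over all retained cells, 1 cell held 34 of 142 *Cebpb* UMIs at day 20 and 1 cell 17 of 80 at day 7. For *Mef2a* at day 7, 1 cell held 5 of 17 UMIs. Among cells above the cut, *Kdm6b* stood at 350 CPM (295 to 412) at day 0, 70.4 CPM (35.2 to 126) at day 7 and 322 CPM (237 to 429) at day 20. *Cebpb* stood at 768 (686 to 858), 365 (276 to 473) and 892 CPM (745 to 1059), and *Cebpa* at 445 (383 to 515), 167 (109 to 244) and 315 CPM (231 to 421). *Mef2a* stood at 289 (239 to 346), 70.4 (35.2 to 126) and 89.2 CPM (47.5 to 152). The day 7 intervals of these 4 genes lay below those of day 0 among cells above the cut, where immediate-early RNA was lower too. The same held for *Irf8* (304 to 509 at day 7 against 522 to 674 CPM at day 0), *Mef2c* (98.5 to 229 against 326 to 449 CPM) and *Runx1* (39.7 to 134 against 155 to 244 CPM), while *Sall1* intervals overlapped. How many of all genes were separated in this way was not counted, so these separations cannot be set against a background. Of the first 4 genes, only *Mef2a* had a day 20 interval wholly below its day 0 interval. *Spi1* levels overlapped in their intervals at 426 (365 to 494), 371 (282 to 480) and 309 CPM (225 to 413). Below the cut, *Cebpb* was at 93.0 (19.2 to 272), 104 (65.9 to 156) and 92.6 CPM (47.9 to 162) and *Kdm6b* at 62.0 (7.51 to 224), 9.04 (1.09 to 32.6) and 30.9 CPM (8.41 to 79.1).

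**Figure D4:**
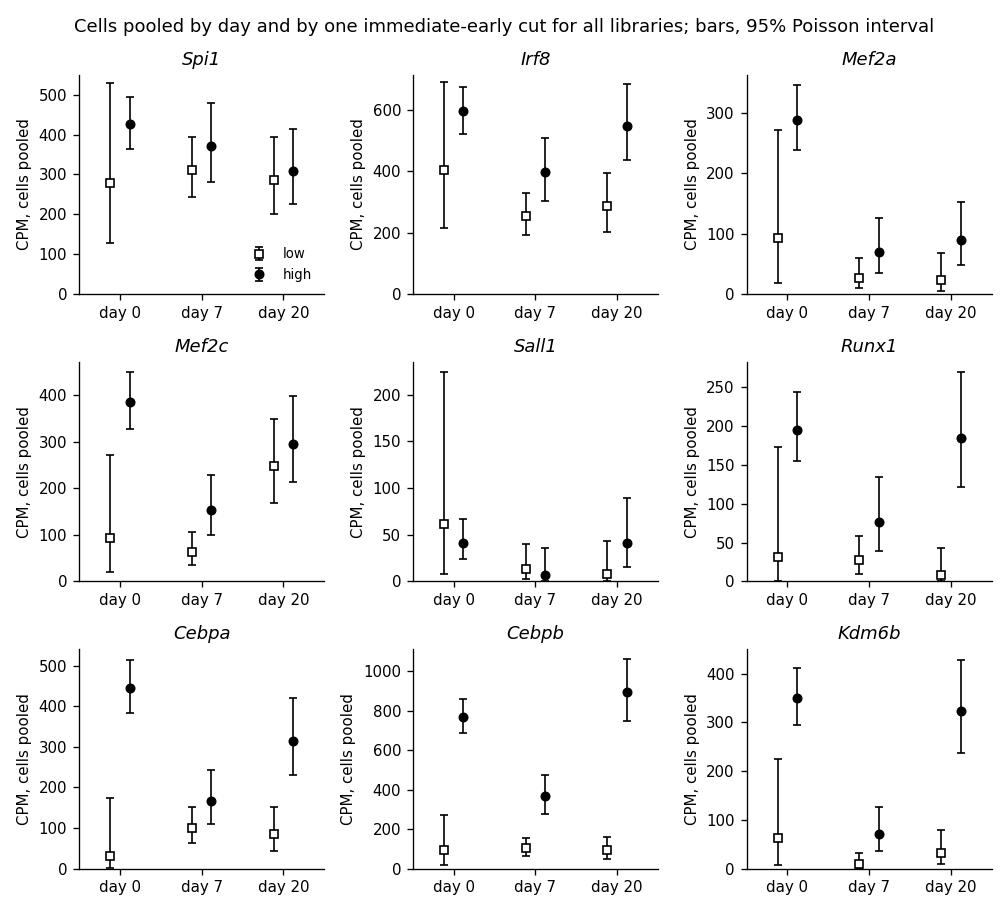
Pooled level of each gene (CPM, with 95% exact Poisson intervals) by day in cells above and at or below one common share of immediate-early RNA, 0.301% of UMIs. Above the cut *Kdm6b* stands at 350, 70.4 and 322 CPM at day 0, day 7 and day 20, and below the cut *Cebpb* lies between 92.6 and 104 CPM.

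The second division of cells was by MHC class II. Among the cells of day 7 and day 20, 7 of 269 genes tested differed between positive and negative cells (2.60%), and no member had enough UMIs to be tested. The division followed depth: positive cells after light had a median of 1171.5 UMIs and negative cells 634. Levels are therefore given day by day, pooled over the cells of a class with counting intervals and no test, first with the class called at each cell's own depth and then with the class called on cells thinned to equal depth, which was chosen after the first division was seen. At day 20 and own depth, *Kdm6b* stood at 261 CPM (194 to 343) in positive cells and had 0 UMIs in negative cells (up to 46.2 CPM), and *Cebpb* stood at 670 (560 to 795) and 138 CPM (68.8 to 246). At day 20 and equal depth, *Kdm6b* stood at 230 (134 to 369) and 196 CPM (136 to 273), and *Cebpb* at 664 (491 to 877) and 530 CPM (427 to 649), with overlapping intervals for both. All 34 *Kdm6b* UMIs of these negative cells came from cells that were positive at own depth. At day 7 and own depth, *Kdm6b* stood at 33.2 (16.6 to 59.4) in positive and 43.6 CPM (5.28 to 157) in negative cells, and at equal depth at 45.3 (21.7 to 83.4) and 15.4 CPM (1.87 to 55.7). *Cebpb* at day 7 stood at 226 (178 to 284) in positive and 109 CPM (35.4 to 254) in negative cells at own depth, and at 159 (111 to 221) and 293 CPM (207 to 402) at equal depth. *Mef2a* at equal depth stood at 27.2 (9.98 to 59.2) in positive and 77.1 CPM (37.0 to 142) in negative cells at day 7. At day 20 it stood at 13.5 (0.343 to 75.5, 1 UMI) and 80.6 CPM (44.1 to 135, 14 UMIs). *Sall1* at own depth stood at 12.1 CPM (3.29 to 30.9, 4 UMIs) in positive cells at day 7, with 0 UMIs in negative cells (up to 80.3 CPM). At day 20 it stood at 35.8 CPM (14.4 to 73.8, 7 UMIs), with 0 UMIs in negative cells (up to 46.2 CPM). At equal depth *Sall1* had 1 UMI in positive (0.115 to 25.3 CPM) and 3 in negative cells (4.77 to 67.6 CPM) at day 7. At day 20 it had 0 (up to 50.0 CPM) and 7 (16.2 to 83.0 CPM). All these *Mef2a* and *Sall1* intervals overlapped between the classes. With both days pooled at equal depth, *Mef2a* stood at 23.8 (9.56 to 49.0) in positive and 79.1 CPM (50.7 to 118) in negative cells. *Cebpb* stood at 285 (228 to 353) and 428 CPM (358 to 509). These pooled intervals did not overlap, while those of *Sall1* did. The classes mix the days differently, and *Cebpb* was lower in positive cells at day 7 and higher at day 20. *Spi1* intervals overlapped on both days at equal depth, at 331 (259 to 416) in positive and 339 CPM (247 to 455) in negative cells at day 7 and 284 (176 to 435) and 288 CPM (214 to 379) at day 20.

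At equal depth the third day 7 library had fewer than 5 cells in a class and was left out of the test. Over the other libraries of both days, with the class called at equal depth, 3 members could be tested and none was called. The log2 difference of positive from negative cells was −0.46 ± 0.57 for *Cebpb* (edgeR adjusted p = 0.94), 0.13 for *Irf8* (adjusted p = 0.97) and 0.06 for *Spi1* (adjusted p = 0.99). With the class at own depth and no filter on low counts, *Cebpb* was called higher in positive cells (2.17, edgeR adjusted p = 0.020), while *Kdm6b* (3.34, adjusted p = 0.077) and *Irf8* (1.52, adjusted p = 0.18) were not.

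**Figure D5:**
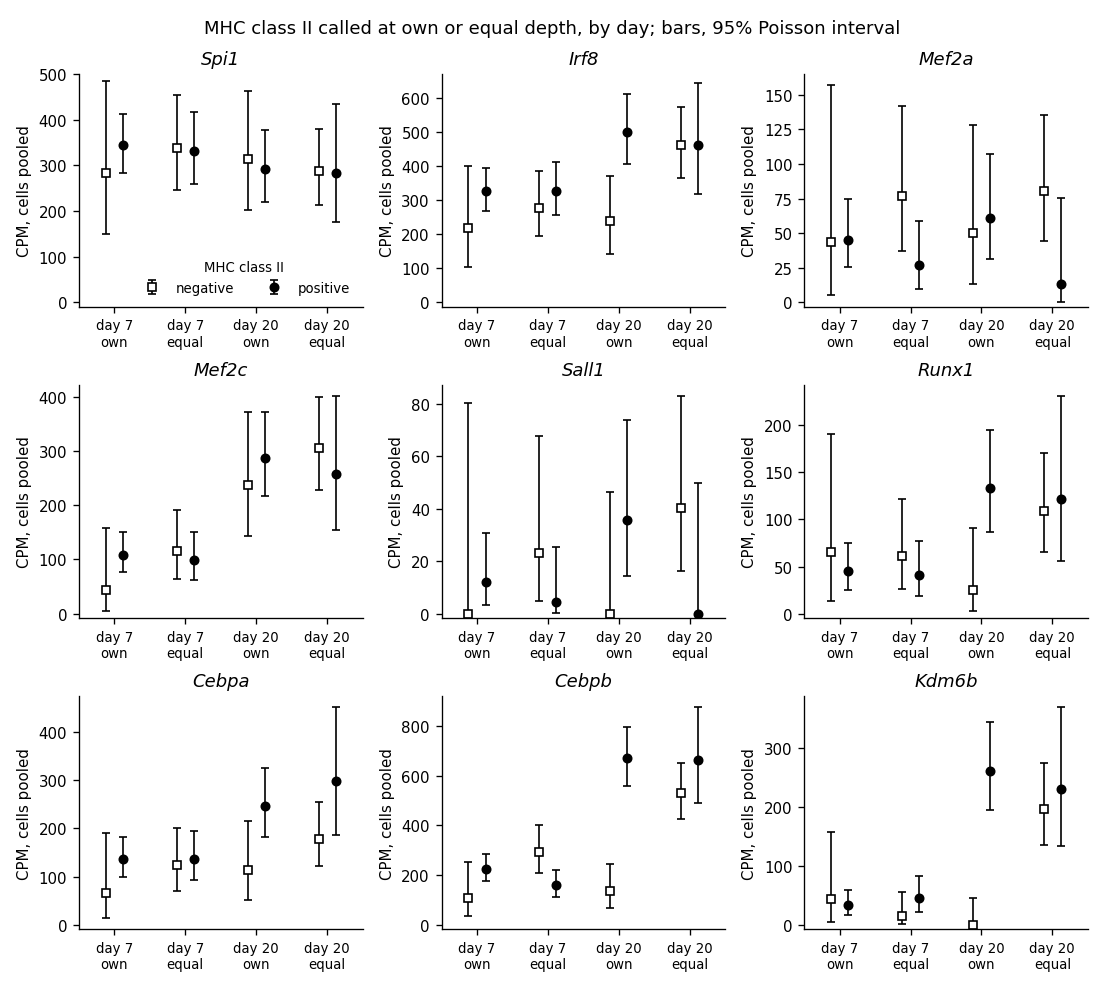
Pooled level of each gene (CPM, with 95% exact Poisson intervals) in MHC class II-negative and -positive cells, separately for day 7 and day 20, with the class called at each cell's own depth (own) or after thinning to equal depth (equal). At day 20 *Kdm6b* and *Cebpb* are lower in negative cells at own depth, whereas their intervals overlap at equal depth. Cells positive at own depth can be negative at equal depth.

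Among MHC class II-negative cells alone, 3 members could be tested with the class called at own depth. *Cebpb* and *Irf8* passed the filter on low counts only through the day 0 libraries. There *Cebpb* stood at 488 to 1027 CPM and *Irf8* at 513 to 660 CPM. No later library exceeded 248 CPM for *Cebpb* or 391 CPM for *Irf8*. Their lower later levels were thus close to fixed in advance and are given as description only. At day 7 *Cebpb* was lower than at day 0 (log2 change −3.05 ± 0.65, edgeR adjusted p = 0.0029), as was *Irf8* (−1.69 ± 0.58, adjusted p = 0.042), and *Spi1* had −0.91 ± 0.51 (adjusted p = 0.21), beside 23.0% of genes called lower (88 of 382). At day 20 *Cebpb* (−2.67 ± 0.53, edgeR adjusted p = 0.0024) and *Irf8* (−1.67 ± 0.50, adjusted p = 0.028) were again lower, and *Spi1* had −0.75 ± 0.44 (adjusted p = 0.30), beside 17.0% of genes called lower (65 of 382). Negative cells were shallower after light, with median depths of 908, 623 and 645.5 UMIs at day 0, day 7 and day 20. With the class called at equal depth, 6 members could be tested. At day 7, 5 of them were called lower, beside 196 of 949 genes. At day 20 no member was called, beside 11 of 949 genes called lower and 4 called higher. *Irf8* (−1.11, edgeR adjusted p = 0.036) and *Cebpb* (−1.54, adjusted p = 0.042) were called at day 7 and not at day 20 (−0.42 and −0.63, adjusted p = 0.63 for each). After light, most UMIs of the equal-depth negative class came from cells that were positive at own depth. It held 129687 UMIs at day 7 and 173745 at day 20, against 45911 and 79847 at own depth. *Cebpb* had 38 UMIs in it at day 7, against 5 at own depth, and 92 against 11 at day 20. These fits therefore cannot check the own-depth calls. At own depth, *Irf8* lost its day 7 call without any one of 5 libraries, any of day 0 or the first or the third of day 7 (edgeR adjusted p from 0.055 to 0.36, with log2 changes from −1.72 to −0.89). Its own-depth day 20 call was lost without the second day 0 library (−1.42, adjusted p = 0.14) or the first day 20 library (−1.09, adjusted p = 0.15).

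The wider set of regulators was measured less fully. Of 28 relatives of the 9 genes, 27 were in the tables, and 4 had enough UMIs to be tested at day 7. *Irf7*, the interferon regulatory factor that amplifies type I interferon responses, rose from 35.2 ± 24.1 to 277 ± 30 CPM (SD, n = 3; log2 change 3.22 ± 0.47, edgeR adjusted p = 0.00014) and stood at 36.2 ± 12.9 CPM at day 20. *Irf5*, which drives inflammatory macrophage genes, fell from 257 ± 37 to 78.1 ± 24.6 CPM (−1.45 ± 0.38, edgeR adjusted p = 0.011), and *Cebpg*, a C/EBP partner, from 136 ± 28 to 51.3 ± 46.2 CPM (−1.71 ± 0.52, adjusted p = 0.025). Among other myeloid regulators, *Id2*, an inhibitor of helix-loop-helix factors, fell from 567 ± 118 to 129 ± 44 CPM (−2.02 ± 0.46, edgeR adjusted p = 0.0053).

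Of 24 microglial genes, 23 were tested at day 7, of which 16 were lower and 1 higher, with a median log2 change of −1.57. *Tmem119*, a microglial surface protein, fell from 1198 ± 166 to 192 ± 104 CPM (−2.74 ± 0.39, edgeR adjusted p = 0.00013), and *Siglech*, a sialic acid-binding receptor, from 566 ± 186 to 53.5 ± 49.5 CPM (−2.92 ± 0.42, adjusted p = 0.00014). *P2ry13*, a nucleotide receptor, fell by 2.80 on the log2 scale (edgeR adjusted p = 0.0021), and the fructose transporter gene *Slc2a5* went from 144 ± 25 CPM to 0 in all 3 day 7 libraries. *Fcrls*, an Fc receptor-like gene, was the one that rose (85.0 ± 14.3 to 494 ± 59 CPM, 2.57 ± 0.39, edgeR adjusted p = 0.00018). Of 17 immediate-early genes tested, 16 fell at day 7 (median −2.93), led by *Klf2* (−4.58 ± 0.48), *Klf4* (−4.31 ± 0.47), *Jun* (−3.92 ± 0.48) and *Fosb* (−3.64 ± 0.51). Of 16 NF-kB feedback and cytokine genes, 10 fell (median −2.47), led by *Il1a* (−5.05 ± 0.54), *Tnfaip3* (−3.87 ± 0.62), *Socs3* (−3.68 ± 0.57) and *Tnf* (−3.40 ± 0.51). Of 8 heat shock genes, 6 fell, led by *Hspa1a* (−4.95 ± 0.74), *Dnajb1* (−3.48 ± 0.50), *Hspa5* (−1.40 ± 0.40) and *Hsp90aa1* (−1.07 ± 0.29), and *Hspe1*, a mitochondrial chaperonin gene, rose (1.19 ± 0.33). From day 7 to day 20, 8 of 23 microglial, 8 of 17 immediate-early and 8 of 16 NF-kB and cytokine genes tested were higher and none was lower, among 60 of 1435 genes called higher. That comparison called 14 genes in all without the first day 7 library and 0 with libraries as deposited.

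The genes whose log2 CPM followed each member most closely over the 9 libraries, among 1434 others, were named without a test, since the 9 libraries fall into 3 days and differ in depth. *Kdm6b* was most like *Junb* (r = 0.98), *Btg2* (0.97) and *Sparc* (0.95), and *Cebpa* most like *Zfp36* (0.98), *Klk8* (0.97) and *Ivns1abp* (0.97). *Junb*, *Btg2* and *Zfp36* are in the immediate-early list. *Runx1* was most like *Mcl1* (0.99), *Pik3r1* (0.96) and *Map3k8* (0.95), *Mef2c* like *Lyn* (0.97), *Inpp5d* (0.96) and *Rsrc2* (0.96), and *Mef2a* like 5031425E22Rik (0.96), *Cited2* (0.93) and *Tob2* (0.93). *Cebpb* was most like *Ivns1abp* (0.93), *Marcksl1* (0.92) and *Sgk1* (0.92), *Irf8* like *Golm1* (0.92), *F11r* (0.91) and *Irf5* (0.91), and *Spi1* like *C3ar1* (0.81), *Map2k2* (0.80) and *Commd3* (0.77).

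When the libraries were summed as deposited, shared barcodes counted in each library, while the quality and myeloid marker rules still applied. Day 7 then kept a fall of *Kdm6b* (log2 change −2.12, edgeR adjusted p = 0.0042) and *Cebpa* (−1.09, adjusted p = 0.026), beside 1.56% of genes called lower (41 of 2628). The changes of *Mef2a* (−0.79, adjusted p = 0.21), *Mef2c* (−0.53, adjusted p = 0.16), *Runx1* (−0.62, adjusted p = 0.19) and *Cebpb* (−0.52, adjusted p = 0.12) kept their direction and lost their calls. No gene was called at day 20 against either other day by edgeR, with 222 and 151 genes at an unadjusted p under 0.05 against day 0 and day 7. All 8 tested members kept estimates below 0 at day 7 and at day 20 against day 0, beside 51.8% and 49.3% of all genes tested.

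In build GRCm38 the 9 genes lie on 6 chromosomes, each as a protein-coding gene of the GENCODE annotation. They are *Spi1* (chr2:91082390-91115756), *Irf8* (chr8:120736358-120756694), *Mef2a* (chr7:67231163-67372858), *Mef2c* (chr13:83504034-83667080), *Sall1* (chr8:89027235-89044162), *Runx1* (chr16:92601466-92826149), *Cebpa* (chr7:35119293-35121928), *Cebpb* (chr2:167688915-167690418) and *Kdm6b* (chr11:69398508-69413675). Of these, 5 share exonic sequence with a counted gene on the other strand. *Tmem189*, opposite *Cebpb*, had 18, 5 and 3 UMIs at day 0, day 7 and day 20, and the partners of *Mef2a*, *Runx1*, *Cebpa* and *Kdm6b* had 0 or 1 UMI per day. How strand was used in counting is not given in the sources used here, so UMIs of such pairs are uncertain.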

How the data were processed

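Per the labels, single cells were sorted from retinas and sequenced as droplet-based 3′ libraries, and the authors deposited raw UMI counts per gene and barcode, made with Cell Ranger on build mm10 according to the submitters' processing notes. The members and gene lists were chosen with earlier results of these data known. A barcode passed with 200 or more genes and less than 10% of its UMIs mitochondrial, was used in the library with its highest total, and was retained as myeloid by marker UMIs. No doublet caller was run. Sums per library were tested with edgeR 4.0.16 (TMM, filterByExpr, all 9 libraries in one fit, day as factor, no block) in R 4.3.3, checked on simulated data, with DESeq2 1.42.0 as an alternative. The simulation gave all genes the same fixed spread and planted large changes only in abundant genes. It therefore does not measure the error of the calls reported here. The study ranked single cells, whereas here libraries were the replicates. Other genes were named by rule: the 3 most like each member, and at most 4 called genes per list and direction at day 7. A result the rule would name is not reported here. Intervals and the 3-UMI limit cover counting error only.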

Additional observations from a re-analysis of the deposited data

How the results depend on the processing

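Over 34 results for the members, 517 values were computed under other settings: 457 kept direction and side of the threshold, 46 lost a call, 5 gained one and 9 changed sign. The sign changes were of small estimates. *Spi1* at day 7 against day 0 was 0.011 with the left-out cell types included. For day 20 against day 7, *Irf8* was −0.033 with libraries as deposited and ranged from −0.032 to 0.32 with one library left out, and *Mef2a* was −0.11 with DESeq2, −0.0048 with no filter, −0.13 with a minimum of 100 genes and −0.042 with the left-out cell types included, and ranged from −0.67 to 0.53 with one library left out.

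Counts of called genes moved more. Day 7 against day 0 gave 387 genes, 83 with libraries as deposited, 183 with left-out cell types included and 205 to 545 with one library left out. Day 20 against day 0 gave 39, and 0 with libraries as deposited (222 at an unadjusted p under 0.05, edgeR). Day 20 against day 7 gave 78, 51 with no filter on low counts, 0 as deposited (151 at an unadjusted p under 0.05), 12 with left-out cell types included and 14 to 115 with one library left out. The MHC class II comparison gave 7, 11 with DESeq2, 4 with RLE size factors, 37 with no filter, 0 with the class called on thinned cells (35 at an unadjusted p under 0.05, edgeR) and 3 to 15 with one library left out. The immediate-early comparison gave 147, 403 with no filter and 58 to 178 with one library left out. Among MHC class II-negative cells day 7 gave 105, 183 with no filter, 37 when 1 UMI made a cell positive, 253 with thinned cells and 86 to 207 with one library left out, and day 20 gave 70, 141, 27, 15 and 57 to 161. The thinned classes were chosen after seeing the data, and the causes of these moves were not tested.

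With the replicate number as a block the 3 day comparisons gave 382, 44 and 74 genes, and no member's call changed. The labels share only a number, and correlations of same-numbered libraries (−0.061 to 0.150) overlapped those of other numbers (−0.133 to 0.112).

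Among the members at day 7, *Kdm6b* kept its call in every setting tried. *Cebpa* lost its call only with no filter (−1.53, adjusted p = 0.062), where 12930 genes were tested. That setting also ended the *Mef2c* call (−1.56, adjusted p = 0.062). *Runx1* also lost it with DESeq2 (−1.90, adjusted p = 0.070), with no filter (−1.63, adjusted p = 0.13) and with left-out cell types included (−1.71, adjusted p = 0.16), the last of which also ended the *Mef2a* call (−1.65, adjusted p = 0.16) and the *Kdm6b* rise to day 20 (2.27, adjusted p = 0.15). The smallest library, of 16 cells, limits what a value of 0 can show.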
